A study of Mus musculus with 30 samples.

Results

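Solute carriers are membrane proteins that move ions, metals, sugars, amino acids, nucleosides and metabolites across the plasma membrane and the membranes of organelles. Their genes were followed here in mouse bone marrow progenitors by RNA sequencing. The members are all measured genes whose symbol is Slc, a family number, the letter a and a member number. Of 157 such symbols 4 were set aside beforehand, which left 153 of the 11383 genes in the deposited table. They fall into 35 mitochondrial carriers (family 25), 32 carriers of organic solutes, 24 of amino acids and peptides, 23 of metals, 18 of inorganic ions and 15 of sugars and nucleotide sugars. The other 6 carry a matching symbol but are not carriers: the scaffold genes Slc9a3r1 and Slc9a3r2, and Slc4a1ap, Slc7a6os, Slc36a3os and Slc2a4rg-ps. The 147 carriers belong to 43 families, and each was classed by its family number alone. Single members can therefore carry solutes other than those their class is named for.

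The 30 libraries came from progenitors sorted from the bone marrow of wild-type mice, in 10 groups of 3 biological replicates. The 6 naive groups were GMP (granulocyte-monocyte progenitors), GMP-MoP (monocyte progenitors that derive from GMP), proNeu1 and proNeu2 (neutrophil progenitors), MDP (progenitors of monocytes and dendritic cells) and cMoP (common monocyte progenitors). The other 4 groups, GMP, GMP-MoP, proNeu1 and proNeu2, were taken 2 days after lipopolysaccharide (LPS), a component of bacterial outer membranes that triggers inflammation. The labels give neither the sort gates, the LPS dose and route, the ages of the mice, nor which populations came from the same animal. P-values therefore measure the spread between these samples only. The series asks how GMP-MoPs combine the programmes of neutrophil and monocyte progenitors.

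As background, iron leaves cells through a single known exporter, ferroportin (Slc40a1), and enters mitochondria through the mitoferrins Slc25a37 and Slc25a28. Carriers of family 39 bring zinc into the cytosol, and those of family 30 remove it. ADP and ATP are exchanged across the inner mitochondrial membrane by the ADP/ATP carriers Slc25a4 and Slc25a5. Nucleosides are taken up by concentrative carriers (family 28) and equilibrative ones (family 29), and large neutral amino acids by the pair of Slc7a5 and its heavy chain Slc3a2.

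Values are FPKM, the reads of a gene scaled to the length of the gene and to the reads of the library. They are given as mean ± SD over 3 libraries, and since they are per length they can be set side by side between genes. Differences are log2 fold changes on the scale of log2(FPKM + 1), with their standard errors, from limma fitted over all 30 libraries and all genes. This scale understates the change of genes with low values. A gene counted as called when the difference reached 1 or more on this scale, in either sign, and its p stayed under 0.05 after Benjamini-Hochberg adjustment over all genes. Library totals recovered from the FPKM steps were 23605436 to 41305167 reads (median 28570928). Libraries of 1 group correlated between 0.981 and 0.994 (Pearson's r across genes, which are not independent replicates).

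All 10 neutrophil progenitor markers were higher in proNeu1 than in GMP, and 8 of 9 monocyte progenitor markers were higher in cMoP than in proNeu1. The naive GMP libraries also held transcripts of other cell types. The summed level of 14 basophil, eosinophil and mast cell markers was 18790.5 to 20772 FPKM there, against 99.2 to 137 FPKM in GMP-MoP, 24.5 to 33.9 FPKM in MDP and 459 to 1026 FPKM in naive proNeu1. For 14 erythroid and megakaryocyte markers the sums were 574 to 676 FPKM in naive GMP and 29.7 to 90.03 FPKM in GMP-MoP. The haemoglobin gene Hba-a1 was high in replicate 2 of every LPS group, with 2.39, 49.2 and 3.05 FPKM in LPS GMP and 4.46, 50.1 and 2.91 in LPS proNeu2.

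The table holds genes down to a mean FPKM of 1.00 over all libraries, so carriers below that level were not analysed here, and none of the 153 members was removed by the filter on low values. The members' means over all libraries ran from 1.11 FPKM (a median of 8.01, against 11 for all genes) to 569 FPKM. The highest were mitochondrial: the ADP/ATP carrier Slc25a5 and the phosphate carrier Slc25a3, which supplies phosphate for ATP synthesis, at 231 ± 6.84 FPKM in naive GMP. Among the 6 naive groups 72 of the 153 members varied (moderated F test, adjusted p under 0.05 and a range of group means of at least 1 on the log2 scale), or 47.1%, against 32.7% of all genes. A gene that enters the table through a single high group must vary, so this share is a description. In total 49 members were called in at least 1 of 8 comparisons of naive groups, or 32% of them, against 22.8% of all genes.

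**Figure D1:**
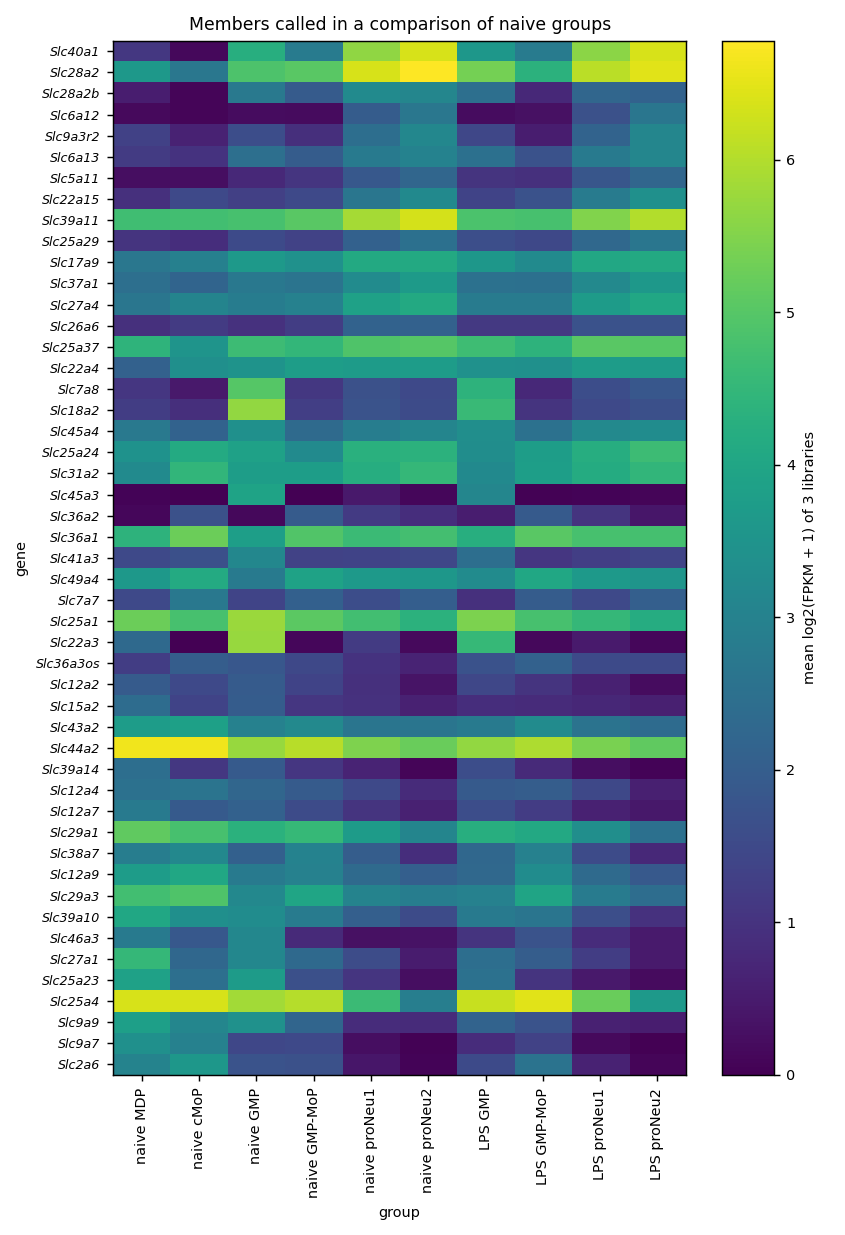
Mean log2(FPKM + 1) of 3 libraries (colour) for the 49 members called in at least 1 comparison of naive groups (rows) in the 10 groups (columns), ordered from those higher in neutrophil progenitors to those higher in MDP and cMoP. Slc40a1 and Slc28a2 stand at the top, Slc2a6 and Slc9a7 at the bottom, and Slc22a3, Slc18a2, Slc7a8 and Slc45a3 are brightest in GMP.

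The monocyte and neutrophil sides differed most. Between naive cMoP and proNeu1, 16 members were higher in cMoP and 15 higher in proNeu1, where 6.26% and 6.25% of all genes were called. From GMP to proNeu1 9 members were higher and 18 lower (4.09% and 8.35% of all genes). In that comparison the median of all genes lay at -0.14, and at -0.01 after median-of-ratios scaling, a shift of all genes that the single values below should be read against. Only 3 members separated proNeu2 from proNeu1, all of them lower (1.25% of all genes were lower and 0.0966% higher). For the 0 members called higher there by limma, 82 members had an unadjusted p under 0.05 in either direction, and voom on the recovered reads called 14 in all. In GMP-MoP 3 members were higher and 4 lower than in cMoP (1.99% and 2.62% of all genes), and 4 were higher and 8 lower than in proNeu1 (2.33% and 3.37%). Against GMP, 3 members were higher in GMP-MoP and 10 lower (2.02% and 6.53%). MDP had 4 members higher and 10 lower than GMP (2.73% and 5.42%), and cMoP 4 higher and 5 lower than MDP (3.38% and 4.16%). Of the members, 20.3% were called for cMoP against proNeu1 and 17.6% for proNeu1 against GMP. In the other comparisons the shares lay nearer to the background in percentage points, with 7.84% for GMP-MoP against proNeu1. The counts grew with a pseudocount of 0.1, to 20 for GMP-MoP against GMP, 15 against cMoP and 21 against proNeu1, to 18 for cMoP against MDP and to 13 for proNeu2 against proNeu1. In bulk libraries fewer cells that carry a transcript and less of it per cell cannot be told apart.

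Among the metal carriers the iron exporter Slc40a1 had the widest range of all 153 members over the 10 group means. The gene lies on chromosome 1, 45908068 to 45926523, minus strand (GRCm38, GENCODE M21). It was at 74.5, 85.7 and 83.1 FPKM in the 3 naive proNeu2 libraries, 48.4, 48.5 and 51.8 in proNeu1 and 16.9, 16.9 and 20.1 in GMP. In GMP-MoP it was at 6.81, 6.01 and 5.61, in MDP at 0.883, 1.37 and 1.24 and in cMoP at 0.0772, 0.136 and 0.121. The 6 groups did not overlap in this order, with proNeu2 highest and cMoP nearly without transcript (8 to 16 reads a library). The difference was -5.51 ± 0.10 (SE, adjusted p = 1.92e-22) for cMoP against proNeu1, 2.68 ± 0.10 (SE, adjusted p = 7.05e-16) for GMP-MoP against cMoP and -2.83 ± 0.10 (SE, adjusted p = 2.48e-16) for GMP-MoP against proNeu1. GMP-MoP was also below GMP, with -1.41 ± 0.10 (SE, adjusted p = 1.89e-11). The step from proNeu1 to proNeu2 was 0.70 ± 0.10 (SE, adjusted p = 1.47e-05), under the size set for a call. Ferroportin is also a gene of iron-recycling macrophages, so macrophage markers were read beside it: their summed level over 9 genes was 36.7 to 38.9 FPKM in proNeu1, 136 to 167 FPKM in proNeu2, 69 to 90.7 FPKM in GMP and 18.6 to 21.1 FPKM in cMoP, most of it in proNeu2 from Vcam1 (138 ± 19.1 FPKM). Of the 9 genes 2 were higher and 3 lower in cMoP than in proNeu1, and the complement genes C1qa, C1qb and C1qc were at 0 in every cMoP library. Their part in the differences of Slc40a1 was not tested.

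Genes that bring iron in or move it inside the cell differed less. Slc11a2, which carries ferrous iron across the endosomal membrane, was at 5.82 ± 0.238 FPKM in GMP and 2.26 ± 0.23 in proNeu2. Slc48a1, which exports haem from endosomes and lysosomes, was among the highest metal carriers and ran from 32.8 ± 0.414 FPKM in MDP to 85.2 ± 2.67 in proNeu2. Mitoferrin 1 (Slc25a37) was lower in cMoP than in proNeu1, at 11.5, 10.8 and 9.01 against 26.3, 29.9 and 31.2 FPKM, a difference of -1.40 ± 0.10 (SE, adjusted p = 1.13e-11). Mitoferrin 2 (Slc25a28) was at 22.8 ± 3.01 and 17.6 ± 1.55 FPKM in the same groups, so that Slc25a37 made up 31.5% ± 1.56 of their joint level in cMoP and 62.2% ± 4.17 in proNeu1. The erythroid marker sum was 3.88 to 7.51 FPKM in cMoP and 76 to 132 FPKM in proNeu1, and its part in the Slc25a37 difference was not tested. Outside the carriers, the list of 18 measured iron and haem genes had 5 genes lower in cMoP than in proNeu1 and 13 not called. Among the lower were the transferrin receptor Tfrc (-1.20 ± 0.15 SE, adjusted p = 1.63e-07) and the granule proteins Ltf and Lcn2, which are also neutrophil markers. From GMP to proNeu1 4 of the 18 were higher and 2 lower, with Tfrc at 33.5, 43.9 and 30.8 FPKM in GMP and 75.3, 80.6 and 76.7 in proNeu1.

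Zinc carriers moved in opposite directions. Slc39a11, a zinc importer, was at 25.3, 26.5 and 28.6 FPKM in GMP, 56.6, 57 and 58.9 in proNeu1 and 77.7, 82.3 and 79.9 in proNeu2. It was higher in proNeu1 than in GMP by 1.08 ± 0.07 (SE, adjusted p = 6.33e-13) and lower in cMoP than in proNeu1 (-1.14 ± 0.07 SE, adjusted p = 1.59e-13). Slc39a10, an importer of the plasma membrane, ran the other way, with 14.9, 15.7 and 15.9 FPKM in MDP, 8.96, 9.77 and 9.54 in cMoP and 3.4, 2.59 and 3.4 in proNeu1, and was higher in cMoP than in proNeu1 by 1.34 ± 0.11 (SE, adjusted p = 9.76e-11). Its close relative Slc39a6 followed with 29.3 ± 0.145 FPKM in MDP and 7.62 ± 0.455 in proNeu2. The importer Slc39a14, which also carries non-transferrin iron, fell from MDP (4.43 ± 0.459 FPKM) to cMoP (1.13 ± 0.0886 FPKM), with -1.35 ± 0.10 (SE, adjusted p = 1.54e-11), and was lower in proNeu1 than in GMP (-1.24 ± 0.10). The exporters of family 30 all stayed under a range of 1 among the naive groups: Slc30a5, which loads zinc into the secretory pathway, lay between 39.7 and 54.3 FPKM over the naive group means. The metallothionein Mt1, a zinc-binding protein whose gene responds to zinc, was at 5.29, 3.9 and 6.57 FPKM in MDP and 49.8, 54.7 and 51.4 in proNeu1. For copper, Slc31a2 was higher in cMoP (21.1 ± 2.08 FPKM) than in MDP (8.61 ± 2.07), by 1.22 ± 0.15 (SE, adjusted p = 2.75e-07), while the plasma membrane copper importer Slc31a1 was at 17.5 ± 1.17 and 15.3 ± 0.493 FPKM and was not called. Slc31a2 was not confined to the monocyte side, as its highest group mean was that of naive proNeu2.

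**Figure D2:**
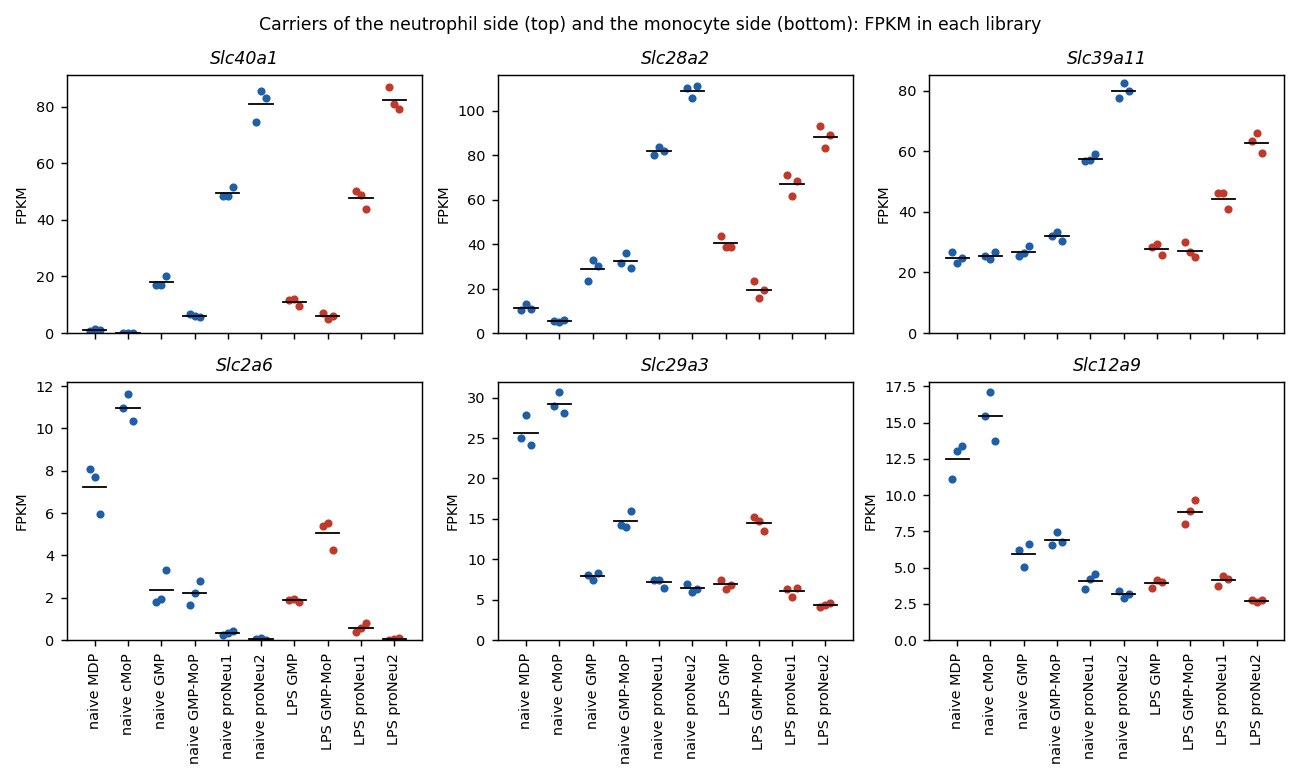
FPKM in each library (points, 3 a group, black lines are group means) for Slc40a1, Slc28a2 and Slc39a11 (top) and Slc2a6, Slc29a3 and Slc12a9 (bottom), naive in blue and LPS in red. The top genes are highest in the proNeu groups and the bottom genes in MDP and cMoP, with GMP-MoP in between.

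Slc25a4 differed more than the other mitochondrial carriers between the proNeu groups. Slc25a4, the ADP/ATP carrier that predominates in heart and muscle, was at 87.1, 79 and 77.7 FPKM in MDP, 86.3, 76.5 and 84 in cMoP, 54.6, 53.9 and 60.9 in GMP and 60.1, 64.4 and 68.3 in GMP-MoP. In proNeu1 it was at 22.3, 23.8 and 24.5 and in proNeu2 at 5.63, 7.09 and 6.56 FPKM, with neither group overlapping any other naive group. It was lower in proNeu1 than in GMP (-1.23 ± 0.12 SE, adjusted p = 2.34e-09) and fell again from proNeu1 to proNeu2 (-1.73 ± 0.12 SE, adjusted p = 1.62e-10). GMP-MoP lay on the monocyte side, higher than proNeu1 by 1.41 ± 0.12 (SE, adjusted p = 4.70e-10). Slc25a5, the more general form, was at 624 ± 8.79, 488 ± 15.6 and 379.6 ± 20.9 FPKM in cMoP, proNeu1 and proNeu2 and was called in no comparison. Slc25a4 thus made up 13.2% ± 0.669 of the level of both genes in MDP, 10.6% ± 0.654 in GMP, 4.6% ± 0.0849 in proNeu1 and 1.67% ± 0.204 in proNeu2. Of the 31-base words of Slc25a5, 49.4% also occur in another annotated gene, mostly its pseudogene, so its level is uncertain, while Slc25a4 shares none.

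**Figure D3:**
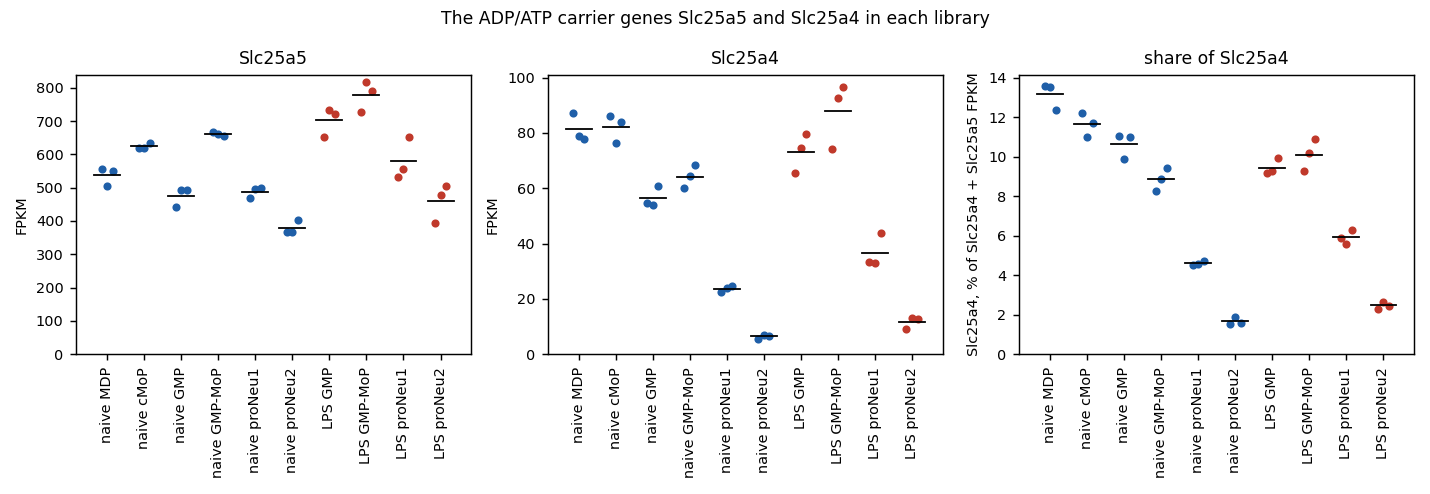
Slc25a5 (left) and Slc25a4 (middle) in FPKM and the share of Slc25a4 in their sum in percent (right), for each library (points) with group means (lines), naive in blue and LPS in red. The share falls from a mean of 13.2% in MDP to 1.67% in naive proNeu2, and each LPS proNeu library lies above the naive libraries of its population.

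Other carriers of family 25 varied in smaller numbers. Slc25a23, a calcium-regulated exchanger of ATP-magnesium for phosphate, was at 12.9, 14.2 and 13.8 FPKM in MDP and 12.2, 11.6 and 13 in GMP, and at 1.0, 1.02 and 1.18 in proNeu1. Its relative Slc25a24 was instead higher in proNeu1 (18.8 ± 0.986 FPKM) than in GMP-MoP (8.43 ± 0.545), with a difference for GMP-MoP against proNeu1 of -1.07 ± 0.11 (SE, adjusted p = 1.13e-08). The citrate carrier Slc25a1, which exports citrate for lipid synthesis, was lower in proNeu1 (25.7 ± 0.789 FPKM) than in GMP (53.5 ± 7.31), with -1.02 ± 0.07 (SE, adjusted p = 1.26e-11). The basic amino acid carrier Slc25a29 was at 0.879 ± 0.301 FPKM in cMoP and 3.32 ± 0.338 in proNeu1 (-1.21 ± 0.15). In the comparison of cMoP with proNeu1, 2 of the 35 were higher in cMoP, 2 higher in proNeu1 and 31 not called. The oxoglutarate carrier Slc25a11 and the glutathione-related carrier Slc25a39 were among the highest of the class and were called nowhere, at 58.9 ± 6.5 and 55.5 ± 5.5 FPKM in GMP.

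Nucleoside carriers split in part by kind. The concentrative carrier Slc28a2, which takes up purine nucleosides with sodium, was at 5.37, 5.02 and 5.8 FPKM in cMoP, 10.6, 12.9 and 10.6 in MDP, 23.3, 32.8 and 30.1 in GMP and 31.6, 36.2 and 29.1 in GMP-MoP. It reached 79.97, 83.5 and 81.7 in proNeu1 and 110.1, 106 and 111 in proNeu2. GMP and GMP-MoP lay close together, MDP and cMoP below both, and the proNeu groups above. GMP-MoP differed from cMoP by 2.38 ± 0.11 (SE, adjusted p = 3.86e-14) and from proNeu1 by -1.32 ± 0.11 (SE, adjusted p = 9.58e-10), and cMoP from proNeu1 by -3.69 ± 0.11 (SE, adjusted p = 9.63e-19). Slc28a2b, its neighbour on chromosome 2, was at 8.53 ± 1.15 FPKM in proNeu1 and 0.0684 ± 0.0206 in cMoP (-3.15 ± 0.16 SE, adjusted p = 9.94e-15). The genes share 46.3% and 39.4% of their 31-base words, so the split of reads between them is uncertain. The equilibrative carriers Slc29a3 and Slc29a1 ran the other way. Slc29a2 of the same family did not: it was highest in naive GMP, with a range of 1.10 among the naive groups. It was not called between cMoP and proNeu1. Slc29a3, a nucleoside carrier of lysosomes, was at 25, 27.8 and 24.2 FPKM in MDP and 29, 30.7 and 28.1 in cMoP, against 8.03, 7.43 and 8.29 in GMP and 7.49, 7.45 and 6.46 in proNeu1, and differed between cMoP and proNeu1 by 1.90 ± 0.08 (SE, adjusted p = 1.30e-16). Slc29a1, the main equilibrative carrier of the plasma membrane, was also higher on the monocyte side but highest in MDP, from 33.9 ± 1.32 FPKM in MDP to 12.3 ± 0.876 in proNeu1 and 7.42 ± 0.118 in proNeu2 (1.08 ± 0.08 SE, adjusted p = 5.18e-12 for cMoP against proNeu1).

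Promoter sequence was set beside these patterns for members that move together: Slc28a2 and Slc28a2b of the neutrophil side, and Slc18a2 and Slc22a3, which are described next as highest in GMP. The 250 bases before the RefSeq transcription start (GRCm38.p6) are shown 5′ to 3′ on the gene's strand. Capitals mark matches to GATAA on either strand, the core bound by GATA factors of mast, basophil and erythroid cells.
Slc28a2 (chr2:122426185-122426434, plus strand): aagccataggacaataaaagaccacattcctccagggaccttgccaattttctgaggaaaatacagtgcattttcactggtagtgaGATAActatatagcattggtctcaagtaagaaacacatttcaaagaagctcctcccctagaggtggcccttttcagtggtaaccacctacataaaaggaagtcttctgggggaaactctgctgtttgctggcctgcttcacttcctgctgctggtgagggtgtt
Slc28a2b (chr2:122484691-122484940, plus strand): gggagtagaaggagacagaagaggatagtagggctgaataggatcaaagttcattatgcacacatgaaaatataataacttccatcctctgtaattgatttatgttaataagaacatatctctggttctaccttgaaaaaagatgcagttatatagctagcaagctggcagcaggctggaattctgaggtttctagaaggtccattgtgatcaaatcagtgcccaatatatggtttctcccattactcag
Slc18a2 (chr19:59260628-59260877, plus strand): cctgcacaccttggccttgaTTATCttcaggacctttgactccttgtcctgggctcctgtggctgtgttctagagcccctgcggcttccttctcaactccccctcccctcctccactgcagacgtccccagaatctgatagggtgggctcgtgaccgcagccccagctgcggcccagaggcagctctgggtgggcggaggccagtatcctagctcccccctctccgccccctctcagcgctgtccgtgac
Slc22a3 (chr17:12507705-12507954, minus strand): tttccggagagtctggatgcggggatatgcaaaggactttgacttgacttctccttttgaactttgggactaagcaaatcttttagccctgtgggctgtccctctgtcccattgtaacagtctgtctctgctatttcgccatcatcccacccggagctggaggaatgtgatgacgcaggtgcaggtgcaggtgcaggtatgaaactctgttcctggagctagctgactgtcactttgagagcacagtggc
GATAA occurred once in the Slc28a2 and once in the Slc18a2 window. In the set of 5 members lower than GMP in GMP-MoP, MDP and proNeu1 (Slc22a3, Slc18a2, Slc7a8, Slc45a3 and Slc41a3), 2 of 6 promoters held GATAA, against 22.6% of 32851 RefSeq promoters. TTGCNNAA, a core of C/EBP sites, was in 0 of 20 promoters of the members higher in proNeu1 than in cMoP. These promoters belong to 12 of the 15 members. The motif was in 8 of 164 promoters of all members (4.88%) and in 9.56% of all promoters. GAGGAA, a core of PU.1 sites, was in 7 of the same 20 (35%) and 9 of 31 promoters (29%) of the members higher in cMoP, against 23.3% of all. Over the promoters of all members, GATAA was in 20.7% and GAGGAA in 20.1%. All motifs were searched on both strands, they do not contain each other, and 119 of the 153 members had a promoter in the table.

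A group of carriers was high in the GMP groups, most so in naive GMP, and low in the other populations. Slc22a3, an organic cation carrier that takes up histamine and other monoamines, lies on chromosome 17, 12418960 to 12507704, minus strand (GRCm38), and was at 61.3, 46.5 and 51.2 FPKM in GMP. It was at 3.23, 4.65 and 4.3 in MDP, 1.52, 1.22 and 1.07 in proNeu1, 0.186, 0 and 0.0608 in GMP-MoP and 0.0557, 0 and 0 in cMoP (0 to 6 reads a library). Slc18a2, the vesicular monoamine carrier that loads histamine and serotonin into granules, was at 60.8, 44.1 and 47.9 FPKM in GMP and 1.16, 2.02 and 1.1 in GMP-MoP. Slc7a8, a light chain for neutral amino acids, was at 34.5, 27.4 and 30.3 against 1.24, 1.09 and 1.14, and Slc45a3, a sugar carrier family member, at 15.8, 13.9 and 13.1 FPKM in GMP. No read of Slc45a3 was counted in any naive GMP-MoP or cMoP library. With a floor of 3 reads a library, its mean GMP level was 437-fold the mean floor in GMP-MoP and 508-fold that in cMoP. For GMP-MoP against GMP the differences were -5.63 ± 0.12 (SE, adjusted p = 1.21e-21) for Slc22a3, -4.43 ± 0.14 (SE, adjusted p = 1.48e-18) for Slc18a2 and -3.87 ± 0.11 (SE, adjusted p = 2.87e-19) for Slc7a8. MDP against GMP gave -3.42 ± 0.12, -4.46 ± 0.14 and -3.91 ± 0.11, and proNeu1 against GMP -4.57 ± 0.12, -3.94 ± 0.14 and -3.29 ± 0.11, all called. Slc41a3, of a magnesium carrier family, was also lower in GMP-MoP (1.56 ± 0.34 FPKM), MDP (1.84 ± 0.125) and proNeu1 (1.59 ± 0.228) than in GMP (7.89 ± 1.37). In the same libraries the marker list of basophils, eosinophils and mast cells was lower than in GMP for all 14 genes in GMP-MoP and in MDP and for 13 of 14 in proNeu1. Of 14 erythroid and megakaryocyte markers 10, 9 and 10 were lower than in GMP in GMP-MoP, MDP and proNeu1, and of 9 macrophage markers 7, 9 and 6. Their part in the difference of these carriers was not tested.

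**Figure D4:**
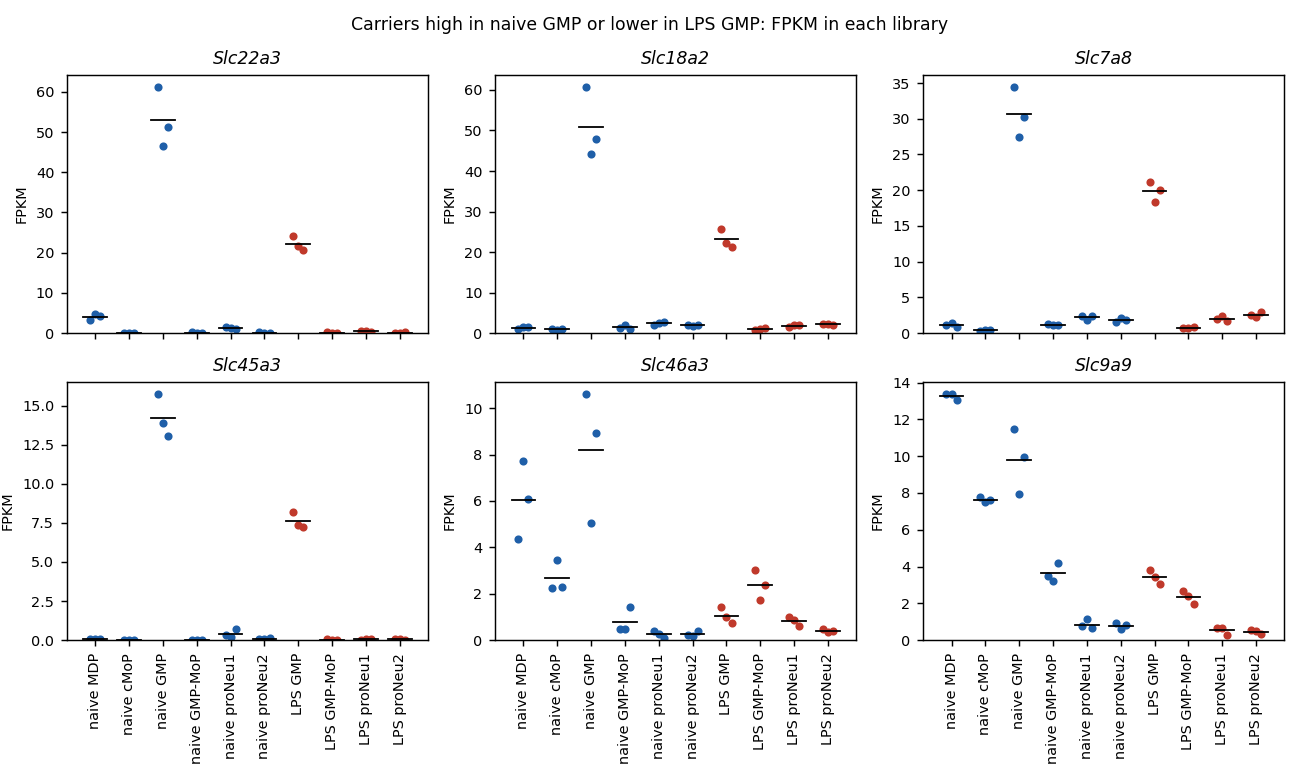
FPKM in each library (points, 3 a group, black lines are group means, naive in blue and LPS in red) for Slc22a3, Slc18a2, Slc7a8, Slc45a3, Slc46a3 and Slc9a9. The first 4 genes stay under 5 FPKM outside the GMP groups, Slc46a3 and Slc9a9 are also present in MDP and cMoP, and for each of the 6 genes every LPS GMP library is below every naive GMP library.

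Other carriers of organic solutes also differed by lineage. Slc27a1, a fatty acid carrier with acyl-CoA synthetase activity, was at 18.4, 24.7 and 22.8 FPKM in MDP, 8.08, 8.02 and 7.52 in GMP and 4.63, 4.21 and 2.88 in cMoP. The difference of cMoP from MDP was -2.24 ± 0.14 (SE, adjusted p = 1.06e-12), and the level in proNeu2 was 0.443 ± 0.136 FPKM. Slc27a4, of the same family, was instead highest in the proNeu groups, with 6.23 ± 0.174 FPKM in GMP, 13.7 ± 1.84 in proNeu1 and 16.3 ± 1.22 in proNeu2, and differed between proNeu1 and GMP by 1.01 ± 0.11 (SE, adjusted p = 1.51e-08). That call was lost without GMP replicate 1 (0.999) or proNeu1 replicate 1 (0.92). Slc22a15, an organic ion carrier, was at 1.25, 1.39 and 1.76 FPKM in GMP and 6.02, 5.17 and 4.76 in proNeu1 (1.36 ± 0.11 SE, adjusted p = 1.44e-10). Slc22a4, the ergothioneine carrier, was lowest in MDP at 3.31 ± 0.573 FPKM and higher in cMoP (9.59 ± 2.32 FPKM, 1.28 ± 0.14 SE, adjusted p = 2.30e-08). Slc17a9, which loads nucleotides into vesicles, was at 6.72 ± 0.682 FPKM in cMoP and 16.4 ± 1.01 in proNeu1 (-1.17 ± 0.12). The choline carrier Slc44a2 was the highest of the class on the monocyte side, with 99 ± 3.66 FPKM in MDP and 99.2 ± 7.27 in cMoP against 43 ± 0.532 in proNeu1 (1.18 ± 0.06 SE, adjusted p = 4.06e-15).

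Amino acid carriers were compared as a class and singly. The summed level of the 24 members was 524 ± 9.54 FPKM in GMP, 513 ± 12.2 in cMoP, 429 ± 2.15 in proNeu1 and 415 ± 12.3 in proNeu2. The sodium-coupled glutamine carrier Slc38a2 was at 71.7 ± 4.36 and 44.9 ± 2.66 FPKM in GMP and proNeu2, and Slc1a5, another glutamine carrier, at 62.7 ± 2.31 and 45.7 ± 2.95. Slc43a3, which sits in an amino acid family but is known to carry purine nucleobases, was at 46.9 ± 3.08 and 92.2 ± 1.85. Slc43a3 is counted in the class sum and ran against its fall, so the other members together fell more than the sum. The leucine carrier Slc7a5 was at 56.8 ± 3.85 FPKM in GMP-MoP, 36.1 ± 1.81 in proNeu1 and 21.2 ± 0.414 in proNeu2, and its heavy chain Slc3a2 at 41.4 ± 8.76, 29.3 ± 3.73 and 21.2 ± 1.81. Both varied among the naive groups by the F test, as did Slc38a1 and Slc36a1, whereas Slc38a2, Slc1a5 and Slc43a3 stayed under the range of 1. Neither Slc7a5 nor Slc3a2 was called between proNeu2 and proNeu1 (-0.74 ± 0.15 for Slc7a5 and -0.44 ± 0.10 for Slc3a2).

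Less abundant members of the class differed more. Slc36a1, a proton-coupled carrier of lysosomes, was higher in GMP-MoP (30.4, 28.3 and 29.7 FPKM) than in GMP (12.6, 14.2 and 11.9), by 1.13 ± 0.08 (SE, adjusted p = 6.64e-12). Slc36a2 of the same family was also higher (1.81 ± 0.16), at 2.87 ± 0.265 against 0.105 ± 0.0994 FPKM. Slc6a12 and Slc6a13, which lie side by side on chromosome 6 and carry betaine, taurine or GABA, were on the neutrophil side. Slc6a12 was at 0.0243, 0.114 and 0.0381 FPKM in cMoP, 3.5, 2.13 and 3.33 in proNeu1 and 5.95, 5.52 and 5.07 in proNeu2, and Slc6a13 at 0.987 ± 0.107, 5.97 ± 0.593 and 7.02 ± 0.482. The lysosomal glutamine carrier Slc38a7 was at 7.93 ± 0.92 FPKM in cMoP and 3.02 ± 0.187 in proNeu1, and fell from proNeu1 to proNeu2 (0.848 ± 0.217 FPKM, -1.13 ± 0.11 SE, adjusted p = 4.96e-08). Slc7a7, which exports cationic amino acids, was higher in cMoP (5.6 ± 0.681 FPKM) than in MDP (1.85 ± 0.468), by 1.22 ± 0.15 (SE, adjusted p = 1.56e-07). Of 16 measured genes of the amino acid response and of serine and asparagine synthesis, 2 were higher and 2 lower in cMoP than in proNeu1. The asparagine synthetase gene Asns was among the lower (-2.08 ± 0.12 SE, adjusted p = 1.44e-13), and the proline synthesis gene Pycr1 among the higher (1.93 ± 0.10).

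A pair of organelle ion exchangers was higher in cMoP than in proNeu1. Slc9a9 was not confined to the monocyte side, as its level in naive GMP, given with LPS below, exceeded that in GMP-MoP. Slc9a7, a sodium/proton exchanger of the trans-Golgi network, was at 9.55, 10.3 and 8.79 FPKM in MDP, 6.4, 8.25 and 6.31 in cMoP, 1.93, 1.2 and 2.47 in GMP-MoP and 0.17, 0.148 and 0.242 in proNeu1. It was higher in cMoP than in GMP-MoP, with -1.49 ± 0.14 (SE, adjusted p = 3.02e-09) for GMP-MoP against cMoP, and higher in GMP-MoP than in proNeu1 by 1.25 ± 0.14 (SE, adjusted p = 4.42e-08). Slc9a9, an exchanger of recycling endosomes, was at 13.3 ± 0.206 FPKM in MDP, 3.62 ± 0.502 in GMP-MoP and 0.838 ± 0.256 in proNeu1 (2.24 ± 0.13 SE, adjusted p = 1.09e-13 for cMoP against proNeu1). Slc12a9, a member of the cation-chloride cotransporter family, was at 15.5, 17.1 and 13.7 FPKM in cMoP and 6.55, 7.44 and 6.75 in GMP-MoP (-1.05 ± 0.10 SE, adjusted p = 4.53e-09). Without cMoP replicate 2 the last value was -0.98 and no longer called. The potassium-chloride cotransporters Slc12a4 and Slc12a7 were lowest in proNeu2 among the naive groups, at 0.79 ± 0.213 and 0.535 ± 0.0601 FPKM. The Golgi exchanger Slc9a8 was called in no comparison, at 11.6 ± 0.523 FPKM in GMP.

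The sugar carrier Slc2a6, a glucose transporter family member of lysosomes, had the largest difference of its class between cMoP and proNeu1. It was at 11, 11.6 and 10.3 FPKM in cMoP, 8.09, 7.71 and 5.94 in MDP, 1.82, 1.95 and 3.33 in GMP, 1.64, 2.23 and 2.79 in GMP-MoP and 0.265, 0.322 and 0.428 in proNeu1. GMP and GMP-MoP lay together, below MDP and cMoP and above proNeu1. The difference between cMoP and proNeu1 was 3.16 ± 0.14 (SE, adjusted p = 1.24e-15), that of GMP-MoP against cMoP -1.91 ± 0.14 (SE, adjusted p = 1.25e-10) and that of GMP-MoP against proNeu1 1.25 ± 0.14 (SE, adjusted p = 1.20e-07). Slc37a1, a sugar-phosphate exchanger family member, and Slc5a11, a sodium-coupled inositol carrier, were on the neutrophil side, with 8.73 ± 1.38 and 2.69 ± 0.66 FPKM in proNeu1 against 3.54 ± 0.153 and 0.194 ± 0.175 in cMoP. Among the nucleotide sugar carriers, Slc35a4 was at 48.7 ± 0.874 FPKM in GMP, 49.2 ± 3.26 in cMoP and 53.9 ± 0.464 in proNeu1, while Slc35a5 varied among the naive groups by the F test, at 3.75 ± 0.123 FPKM in MDP, 4.52 ± 0.331 in GMP and 9.8 ± 0.902 in proNeu2. Of the 15 sugar and nucleotide sugar carriers, 12 were not called between cMoP and proNeu1.

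For several carriers GMP-MoP lay between cMoP and proNeu1. This place was not particular to GMP-MoP. By the values given above, naive GMP also lay between cMoP and proNeu1 for Slc40a1, Slc28a2 and Slc2a6. GMP-MoP was called higher than cMoP and lower than proNeu1 for Slc40a1, Slc28a2 and Slc28a2b. It was called lower than cMoP and higher than proNeu1 for Slc2a6 and Slc9a7. For Slc25a4 it differed from proNeu1 but was not called against cMoP (-0.35 ± 0.12 SE, adjusted p = 0.0194), and for Slc12a9 it differed from cMoP but was not called against proNeu1 (0.64 ± 0.10 SE, adjusted p = 7.74e-06). Among carriers with a symbol outside the rule, 4 of 27 measured were higher in GMP-MoP than in cMoP and the others were not called. They included the mitochondrial calcium uniporter Mcu (1.23 ± 0.07 SE, adjusted p = 2.96e-12).

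LPS changed few carriers by a log2 fold change of 1 or more. In GMP 6 members were lower and 0 higher (3.04% and 0.914% of all genes). In GMP-MoP, proNeu1 and proNeu2 1 member each was lower (0.413%, 0.439% and 0.457% of all genes) and 0 were higher (0.72%, 1.03% and 0.536%). In limma 88, 75, 73 and 76 members had an unadjusted p under 0.05 in GMP, GMP-MoP, proNeu1 and proNeu2, in either direction. Voom on the recovered reads called 11, 7, 6 and 9, and a pseudocount of 0.1 gave 10, 6, 6 and 10. At an adjusted p under 0.05 and any fold, 79 members changed in GMP, 52 in GMP-MoP, 51 in proNeu1 and 66 in proNeu2, a rule chosen after seeing the data. Those that fell outnumbered those that rose, 53 to 26 in GMP (29.6% and 19.3% of all genes), 39 to 13 in GMP-MoP (17.6% and 13.4%), 38 to 13 in proNeu1 (17.2% and 11.2%) and 51 to 15 in proNeu2 (24.1% and 12.6%). The median of all genes lay between -0.07 and -0.04 in the 4 comparisons. After median-of-ratios scaling, also added after seeing the data, 49 fell and 29 rose in GMP, 30 and 20 in GMP-MoP, 32 and 18 in proNeu1 and 40 and 21 in proNeu2. Of all genes 25.8% and 22.1%, 13.3% and 16.4%, 12.8% and 15.1%, and 18.2% and 18.1% then fell and rose in the same order, so the excess of falling genes over all genes depended on the scaling. Haemoglobin was high in replicate 2 of each LPS group, and its part in these changes was not tested.

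The called changes in GMP were all downward. Slc46a3, a lysosomal carrier of the folate carrier family, was at 10.6, 5.05 and 8.91 FPKM in naive GMP and 1.42, 1.0 and 0.725 after LPS, a change of -2.13 ± 0.22 (SE, adjusted p = 4.89e-08). In GMP-MoP it was instead at 0.476, 0.493 and 1.41 and 3.04, 1.74 and 2.39 FPKM (0.94 ± 0.22 SE, adjusted p = 0.00244). Slc9a9 went from 11.5, 7.97 and 9.96 to 3.84, 3.45 and 3.07 FPKM (-1.27 ± 0.13 SE, adjusted p = 3.20e-08), and Slc22a3 from 61.3, 46.5 and 51.2 to 24.2, 21.5 and 20.8 (-1.21 ± 0.12 SE, adjusted p = 2.19e-08). Slc25a23 and Slc18a2 fell as well, to 4.83 ± 0.557 and 23.1 ± 2.34 FPKM (-1.19 ± 0.12 and -1.10 ± 0.14), as did the peptide carrier Slc15a2 (3.18 ± 1.65 to 0.917 ± 0.511 FPKM). For Slc18a2 the value was -0.97 without naive GMP replicate 1, under the size set for a call. The naive and the LPS libraries did not overlap for these 6 genes, as for 91 of the 153 members (59.5%) and 55.1% of all genes. In the same libraries the basophil, eosinophil and mast cell marker sum was 18790.5 to 20772 FPKM before and 7651 to 9245 FPKM after LPS, with 7 of the 14 markers lower, and the erythroid and megakaryocyte sum 574 to 676 FPKM and 102 to 267 FPKM. Macrophage markers were lower for 6 of 9 genes, with sums of 69 to 90.7 FPKM before and 24.1 to 27.1 FPKM after LPS. Fewer such cells in the GMP gate and less transcript per cell cannot be told apart.

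In the pairs of populations tested, the effect of LPS was called different for 2 members, both between proNeu1 and GMP. For this pair 60 members had an unadjusted p under 0.05 in limma. An adjusted p under 0.05 at any size was reached by 42, with 22 effects higher in proNeu1 and 20 lower. The share of all genes by that rule was not counted. Among the lower were Slc19a1 (-0.95 ± 0.13 SE, adjusted p = 1.54e-05) and Slc16a1 (-0.83 ± 0.11 SE, adjusted p = 1.32e-05), under the size set for a call. The change of Slc46a3 was higher in proNeu1 than in GMP by 2.67 ± 0.31 (SE, adjusted p = 1.38e-06) on the log2 scale, and the gene was at 0.374, 0.282 and 0.0979 FPKM in naive and 1.01, 0.857 and 0.611 in LPS proNeu1 (0.54 ± 0.22 SE, adjusted p = 0.0673). For Slc9a9 the difference was 1.01 ± 0.18 (SE, adjusted p = 2.68e-04), and it was not called with a pseudocount of 0.1 (0.87, adjusted p = 0.0731) or with voom (0.86, adjusted p = 0.115), and leaving out single libraries took it as low as 0.90. In this difference 6 of 9 macrophage and 6 of 14 erythroid and megakaryocyte markers were higher in proNeu1 as well, and their part was not tested. Of all genes, 2.86% had a higher effect in proNeu1 by this rule and 0.51% a lower one. Between GMP-MoP and proNeu1, and between proNeu2 and proNeu1, limma called 0 members (0.22% and 0.158% of all genes). An unadjusted p under 0.05 was reached by 11 and 17 members, and voom on the recovered reads also called 0 in each.

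In proNeu2 the called member was Slc7a5, which fell from 21.6, 21.2 and 20.8 to 6.12, 11.2 and 10.9 FPKM (-1.13 ± 0.15 SE, adjusted p = 2.86e-06). Without LPS proNeu2 replicate 1 the change was -0.88. The same gene was at 37.9, 34.3 and 36.1 and 21, 26.2 and 28.8 FPKM in proNeu1 (-0.50 ± 0.15) and 51.8, 56 and 52.8 and 51.2, 63.3 and 65 in GMP (0.15 ± 0.15). In limma's test of the difference itself, proNeu2 minus proNeu1 gave -0.63 ± 0.21 (SE, adjusted p = 0.27). For proNeu1 minus GMP the test gave -0.66 ± 0.21 (SE, adjusted p = 0.0247). Neither difference was called for Slc7a5. Its heavy chain Slc3a2 was at 21.2 ± 1.81 and 15.7 ± 0.976 FPKM in proNeu2 (-0.41 ± 0.10 SE, adjusted p = 0.00326). Slc28a2b was the called member in GMP-MoP (-1.18 ± 0.16 SE, adjusted p = 8.16e-06) and in proNeu1, where it was at 7.86, 9.87 and 7.87 FPKM in naive and 4.34, 3.25 and 3.54 in LPS libraries (-1.02 ± 0.16 SE, adjusted p = 5.55e-05). The value in proNeu1 was -0.98 after median-of-ratios scaling. The level of Slc28a2 in proNeu1 was 81.7 ± 1.78 and 67 ± 4.8 FPKM (-0.28 ± 0.11), so the share of Slc28a2b in the pair was 9.44% ± 0.982 before and 5.23% ± 0.467 after LPS.

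Smaller shifts were shared by all 4 populations. By the adjusted p alone 5 members rose in all 4 and 9 fell, against 3.93% and 4.89% of all genes, or 3.27% and 5.88% of the members. After scaling 6 members rose in all 4, the same 5 among them. Of the 9, 7 still fell in all 4, all but Slc35a1 and Slc25a15. Of all genes 5.74% then rose and 3.13% fell in all 4. The ADP/ATP carriers and the phosphate carrier were among those that rose. Slc25a4 went from 5.63, 7.09 and 6.56 to 9.23, 13 and 12.7 FPKM in proNeu2 (0.76 ± 0.12 SE, adjusted p = 2.47e-05) and from 22.3, 23.8 and 24.5 to 33.3, 32.8 and 43.8 in proNeu1 (0.60 ± 0.12 SE, adjusted p = 5.40e-04), with no overlap in either. In GMP and GMP-MoP its changes were 0.37 ± 0.12 and 0.44 ± 0.12. Slc25a5 rose by 0.56 ± 0.08 in GMP and 0.27 ± 0.08 in proNeu2, and Slc25a3 by 0.41 ± 0.05 and 0.18 ± 0.05. Slc39a7, which releases zinc from the endoplasmic reticulum, was at 2.23, 2.14 and 2.94 FPKM in naive and 4.8, 5.61 and 6.15 in LPS GMP (0.93 ± 0.12 SE, adjusted p = 7.70e-07), and rose by 0.86 ± 0.12 in GMP-MoP, 0.67 ± 0.12 in proNeu1 and 0.74 ± 0.12 in proNeu2. Its reads are uncertain, since 76.8% of its 31-base words also occur in the annotated gene Gm20427. Slc44a4 also rose in all 4, from low levels (0.923 ± 0.186 to 2.23 ± 0.314 FPKM in proNeu2).

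**Figure D5:**
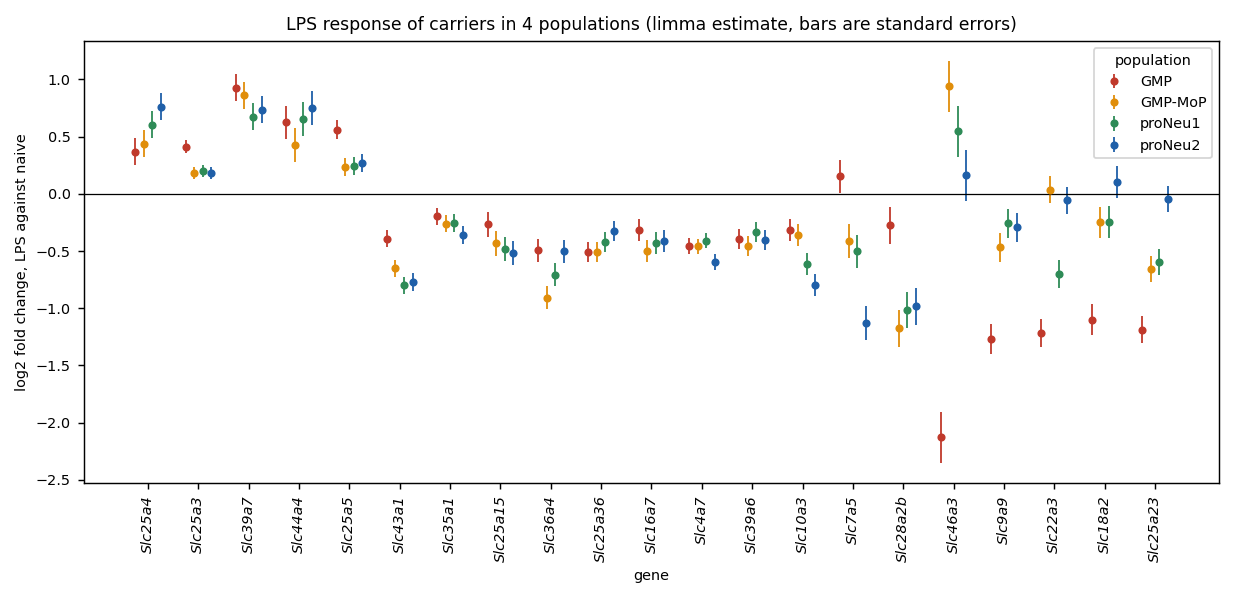
Log2 fold change of LPS against naive libraries (points, limma estimates on log2(FPKM + 1), bars are standard errors) in GMP, GMP-MoP, proNeu1 and proNeu2. The 5 genes on the left rose in all 4 populations and the next 9 fell in all 4, while Slc46a3, Slc9a9, Slc22a3, Slc18a2 and Slc25a23 were called in GMP.

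The 9 that fell in all 4 populations were of several classes. Slc43a1, a carrier of large neutral amino acids, went from 6.36, 6.63 and 5.61 to 3.38, 2.75 and 3.29 FPKM in proNeu1 (-0.80 ± 0.08 SE, adjusted p = 1.06e-07). Slc36a4, an amino acid carrier of the same family as Slc36a1, went from 8.03, 8.63 and 9.09 to 4.94, 3.81 and 3.64 in GMP-MoP (-0.91 ± 0.10 SE, adjusted p = 6.28e-07). The zinc importer Slc39a6 had changes between -0.33 and -0.46, and the sodium-bicarbonate cotransporter Slc4a7 between -0.41 and -0.59. The others were the mitochondrial carriers Slc25a15 (ornithine) and Slc25a36 (pyrimidine nucleotides), the CMP-sialic acid carrier Slc35a1, the monocarboxylate carrier Slc16a7 and Slc10a3. Outside the carriers the zinc-binding Mt1 rose in all 4, from 13.6, 21.8 and 22.6 to 83.5, 94.5 and 87.6 FPKM in GMP (2.17 ± 0.14 SE, adjusted p = 1.17e-11) and from 41.3, 45.6 and 49.5 to 100.02, 90.7 and 89.1 in proNeu2 (1.02 ± 0.14 SE, adjusted p = 4.40e-06). The iron list had Tfrc lower in proNeu2 (79.3, 87.3 and 92.1 and 34.3, 43.3 and 40.6 FPKM, -1.11 ± 0.15 SE, adjusted p = 3.76e-06), and Lcn2 higher in GMP and GMP-MoP (1.26 ± 0.39 and 1.92 ± 0.39). In GMP 1 of the 18 measured genes of this list was called higher and 1 lower, where 0.914% and 3.04% of all genes were called. Slc40a1 itself was at 49.5 ± 1.93 and 47.6 ± 3.36 FPKM in proNeu1 and 81.1 ± 5.89 and 82.3 ± 4.19 in proNeu2, with changes of -0.06 ± 0.10 (SE, adjusted p = 0.713) and 0.02 ± 0.10 (SE, adjusted p = 0.89).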

How the data were processed

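Total RNA of sorted cells was made into directional libraries, per the labels' protocols. The submitters' processing notes name Trimmomatic 0.38.0, STAR 2.7.8 and featureCounts 2.0.1 and the build GRCm38 (mm10). The annotation release and strand setting are not given in the sources used here, so antisense and overlapping genes can share reads. The authors deposited FPKM per gene. Values were whole multiples of the FPKM of 1 read for 11379 of 11383 genes (tolerance 0.02 reads for small counts, at most 0.1), and for 0 of 200 shuffled genes, which gave library totals. All 153 members came out whole.

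From the deposited FPKM, log2(FPKM + 1) was fitted with limma 3.58.1 (R 4.3.3, trend = TRUE) over 30 libraries and 10 groups, keeping genes of at least 1 FPKM in at least 3 libraries (all 11383). P-values were adjusted over all genes. Tables were made with Python 3.11.15. The fit was also run on simulated data drawn with a common spread for all genes, and no result here rests on that run. The members and lists were chosen with earlier results of these data known. Named genes were, for each comparison, up to 5 called members each way of largest change with at least 5 FPKM in the higher group and no overlap, the 3 highest and 3 most variable per class, a panel of 41 known carriers (35 measured), and called companions. Others named in counts, shared responses or pairs were chosen after their values were seen. Alternatives were leaving out each library, no filter, the compared groups alone, a replicate block, scaling by median of ratios and a pseudocount of 0.1. Added after seeing the data were voom on the recovered reads and, for LPS, the adjusted p alone, with and without scaling. Members were placed with GENCODE M21 (150) or RefSeq symbols (3). Shared words are 31-base stretches of a gene's exons found in another annotated gene. RefSeq promoters span 250 bases before to 50 after the start, and only the first 250 are shown and searched.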

Additional observations from a re-analysis of the deposited data

Results flagged for a closer look

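The LPS effect on Slc46a3 differed between proNeu1 and GMP by 2.67 on the log2 scale in limma's test of the difference itself (adjusted p = 1.38e-06). The level was lower in all 3 LPS GMP libraries than in any naive GMP library, and each LPS proNeu1 library stood above the naive proNeu1 libraries, although the change in proNeu1 alone did not pass the test (0.54 ± 0.22 SE, adjusted p = 0.0673). The same test gave 1.01 for Slc9a9 (adjusted p = 2.68e-04), whose own changes were -1.27 ± 0.13 in GMP and -0.26 ± 0.13 in proNeu1. In limma 383 of all 11383 genes passed the same rule for this difference.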

How the results depend on the processing

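No result changed direction. A pseudocount of 0.1 and voom on the recovered reads, which damp low genes less, raised the number of members called: to 20 and 21 for GMP-MoP against GMP, 15 and 15 for GMP-MoP against cMoP, 21 and 21 for GMP-MoP against proNeu1, 18 and 20 for cMoP against MDP, and 13 and 14 for proNeu2 against proNeu1. For LPS against naive they gave 10 and 11 in GMP, 6 and 7 in GMP-MoP, 6 and 6 in proNeu1, and 10 and 9 in proNeu2, and voom gave 7 for the difference between the LPS effects in proNeu1 and GMP. The adjusted p alone gave 79, 52, 51 and 66 members for LPS in GMP, GMP-MoP, proNeu1 and proNeu2, and 78, 50, 50 and 61 with scaling. Median-of-ratios scaling left 0 members for LPS in proNeu1 and 1 for the difference between proNeu1 and GMP. Leaving out 1 library gave 1 to 3 members for LPS in GMP-MoP (3 without naive replicate 3, and 2 without each LPS replicate), 0 to 1 in proNeu1 (0 without naive replicate 2 or LPS replicate 2 or 3) and 1 to 2 in proNeu2 (2 without naive replicate 2). For the difference between proNeu1 and GMP it gave 1 to 3, with 1 without naive GMP replicate 1, LPS GMP replicate 3, naive proNeu1 replicate 1 or 3, or LPS proNeu1 replicate 1 or 2. The other counts stayed within 1.5 times under every alternative run, and where a group lost a library its spread was taken from all groups. Where the cause of a change is not given here, it was not tested.

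For named members 737 values under the alternatives kept their call and 19 fell under a threshold without changing sign. These were Slc12a9, Slc27a4, Slc18a2, Slc7a5 and Slc28a2b as given above, and Slc9a9 for the difference between LPS effects. Slc28a2b in LPS proNeu1 also went to -0.92 without naive proNeu1 replicate 2, and to -0.95 and -0.99 without LPS replicates 2 and 3. A replicate block kept every count as reported, for example 31 members for cMoP against proNeu1 and 6 for LPS in GMP. The replicate numbers are not known to mark shared animals: over 12 pairs of groups the correlation of same-numbered libraries ran from -0.246 to 0.375, in no pair were all 3 over 0.1, and in 2 pairs every library correlated best with its own number. An FPKM of 1 on a gene of 2000 bases is about 57.1 reads at the median depth, so values well under 0.1 FPKM rest on a few reads. The floor of 3 reads covers counting error only.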
